A study of Mus musculus with 2 samples.

Results

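The 38 genes described here form the actin cytoskeleton and migration machinery of circulating leukocytes, and they were taken by symbol from the 27998 genes of the deposited tables. They comprise the 2 cytoplasmic actins (Actb, Actg1), the 2 beta-thymosins (Tmsb4x, Tmsb10), 5 genes of actin turnover (Pfn1, Cfl1, Cap1, Wdr1, Coro1a), 3 capping protein genes (Capzb, Capza1, Capza2) and 7 subunits of the Arp2/3 complex (Arpc1b, Arpc2, Arpc3, Arpc4, Arpc5, Actr2, Actr3). The others are 3 nucleation-promoting genes (Was, Wasf2, Wipf1), 2 formins (Fmnl1, Diaph1), 3 Dock exchange factors (Dock2, Dock8, Dock10), 4 myosin II genes (Myh9, Myl6, Myl12a, Myl12b), 3 ezrin-radixin-moesin (ERM) genes (Ezr, Msn, Rdx), and Lcp1, Flna, Tln1 and Vim. All 38 gene IDs matched the annotation, and 4 of the genes (Tmsb4x, Msn, Was, Flna) lie on chromosome X.

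The study profiled peripheral blood mononuclear cells of C57Bl/6 mice by droplet single-cell RNA sequencing. One library came from mutant mice of genotype MvkV377I/del91, which carry a different Mvk allele on each chromosome, and the other from wildtype mice (Mvk+/+). All animals were female and 10 weeks old, and the blood of 3 mice per genotype was pooled before the library was made. Cells were separated on Ficoll, red cells were lysed, and live Ter119- cells were sorted into 3′ libraries. Mvk encodes mevalonate kinase, an enzyme of the pathway to sterols and isoprenoids. Genotype, pool of mice and library coincide and cannot be told apart, so nothing can be tested, and every value describes these 2 libraries.

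Leukocytes move by polymerising actin at the front of the cell and contracting myosin at the rear. Thymosins and profilin hold and deliver actin monomers, the Arp2/3 complex starts branched filaments when WASP or WAVE proteins activate it, formins build straight filaments, and cofilin, coronin and Aip1 (Wdr1) take filaments apart. ERM proteins tie the cortex to the membrane, and Dock proteins switch on Rac and Cdc42 GTPases, whose membrane anchoring by prenylation uses isoprenoids from the mevalonate pathway.

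Many actin genes are known targets of serum response factor (SRF), which binds the CArG box. That motif was looked for on both strands of the 300 bases around the start sites (250 before and 50 after) of the 36 members that had an entry in RefSeq (GRCm38.p6; 45 start sites). Actb and Diaph1 were not searched. It was present in 3 of these 36 members (8.33%), against 488 of 27025 genes (1.81%). The 3 matches are shown because they are the members that share this known actin-gene motif. Each window of 30 bases is given 5′ to 3′ on the strand of the gene, with the CArG box in capitals.
Actg1, minus strand of chr11:120348566-120348595, box 90 to 81 bases before the start: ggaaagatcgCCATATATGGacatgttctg
Myl6, minus strand of chr10:128493040-128493069, box 50 to 41 bases before the start: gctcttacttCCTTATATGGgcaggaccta
Arpc4, plus strand of chr6:113377863-113377892, box 250 to 241 bases before the start: CCTAATTTGGtgcccaacctgaggtcgggc
A match is a run of letters and not a shown binding site. The Myl6 window lies inside the annotated gene (chr10:128490860-128494145), so its start site is not the outermost start of the gene. Over the cell types described below, these 3 genes had mutant to wildtype ratios of 0.72 to 1.19. The lowest was that of Arpc4 in B-like cells with Zbtb32 or Bhlhe41 RNA. It was past the mark of 20% below wildtype used later, with an interval that included 1.

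The mutant library held 14513059 unique molecular identifiers (UMIs, 1 per captured RNA molecule) and the wildtype library 15385199. Cells with at least 800 UMIs, 200 genes and at most 10% mitochondrial UMIs numbered 4190 and 5225, with medians of 1968 and 2036 UMIs. The libraries shared 28 cell barcodes, where random draws from the barcode list give 29.7 on average. Mvk itself gave 47 UMIs in mutant cells (4.98 counts per 1000000 UMIs, CPM, 95% interval 3.66 to 6.63) and 65 in wildtype cells (5.45 CPM, 4.21 to 6.95), and 3′ tags do not check the mutation. Free RNA in barcodes of at most 20 UMIs held 14.2-fold more haemoglobin and 3.04-fold more platelet marker RNA in the mutant library. The 38 members together made up 50968 and 50363 CPM of it (ratio 1.01), but their groups differed in both directions. Actin RNA was higher there in the mutant library (1.14, 1.11 to 1.17). Lower were Arp2/3 (0.822, 0.764 to 0.885), capping (0.806, 0.684 to 0.948), nucleation-promoting (0.733, 0.539 to 0.991) and thymosin RNA (0.959, 0.929 to 0.990).

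Each cell was placed by marker UMIs into 1 of 6 types, and the UMIs of a type were summed per library. In the order mutant then wildtype, this gave 2091 and 2474 naive-like T cells, 177 and 387 memory-like T cells, 1035 and 948 B-like cells, 105 and 55 B-like cells with Zbtb32 or Bhlhe41 RNA, 176 and 817 NK-like cells, and 80 and 86 monocyte-like cells. A B-like cell with 1 UMI of Zbtb32 or Bhlhe41 entered the smaller B class. Its cells had medians of 3254 and 3661 UMIs, against 1527 and 1543.5 in the other B-like cells. The part of this depth in the split was not tested. NK-like cells carried all 8 NK markers at 5866 and 7715 CPM. Naive-like and memory-like T cells are ranges of 1 score, and 132 and 125 naive-like and 47 and 59 memory-like cells lay within 1 UMI of the dividing line. The naive T marker set stood at 3019 CPM in mutant naive-like T cells, where the memory set stood at 212 CPM with a median of 0 UMIs per cell. Platelet markers were detected in 39 of the 80 mutant and 26 of the 86 wildtype monocyte-like cells, which held 1260 and 564 CPM of them in all. Erythroid markers stood at 2369 to 2812 CPM in the 6 mutant types and 235 to 293 CPM in the wildtype types. The parts of platelet and red cell RNA in the results below were not tested except where values without such cells are given.

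The 38 genes together took the largest share of RNA in NK-like and monocyte-like cells and the smallest in B-like cells. Of all UMIs in NK-like cells they made up 6.26% in the mutant library and 6.11% in the wildtype library. For monocyte-like cells these shares were 6.14% and 5.44%. Memory-like T cells gave 4.97% and 4.79%, and naive-like T cells 3.72% and 3.57%. The share was 3.18% and 2.92% in B-like cells and 3.22% and 3.33% in the Zbtb32/Bhlhe41 B-like cells. The order NK, monocyte, memory-like T, naive-like T was the same in both libraries. A 3′ UMI count does not scale with gene length, so levels in CPM are set side by side between genes, although capture may differ from gene to gene. In summed types a level reflects RNA per cell relative to all RNA of those cells. The intervals given are exact 95% intervals for counting error only, and PCR, cell capture and animals add error that they do not hold.

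**Figure D1:**
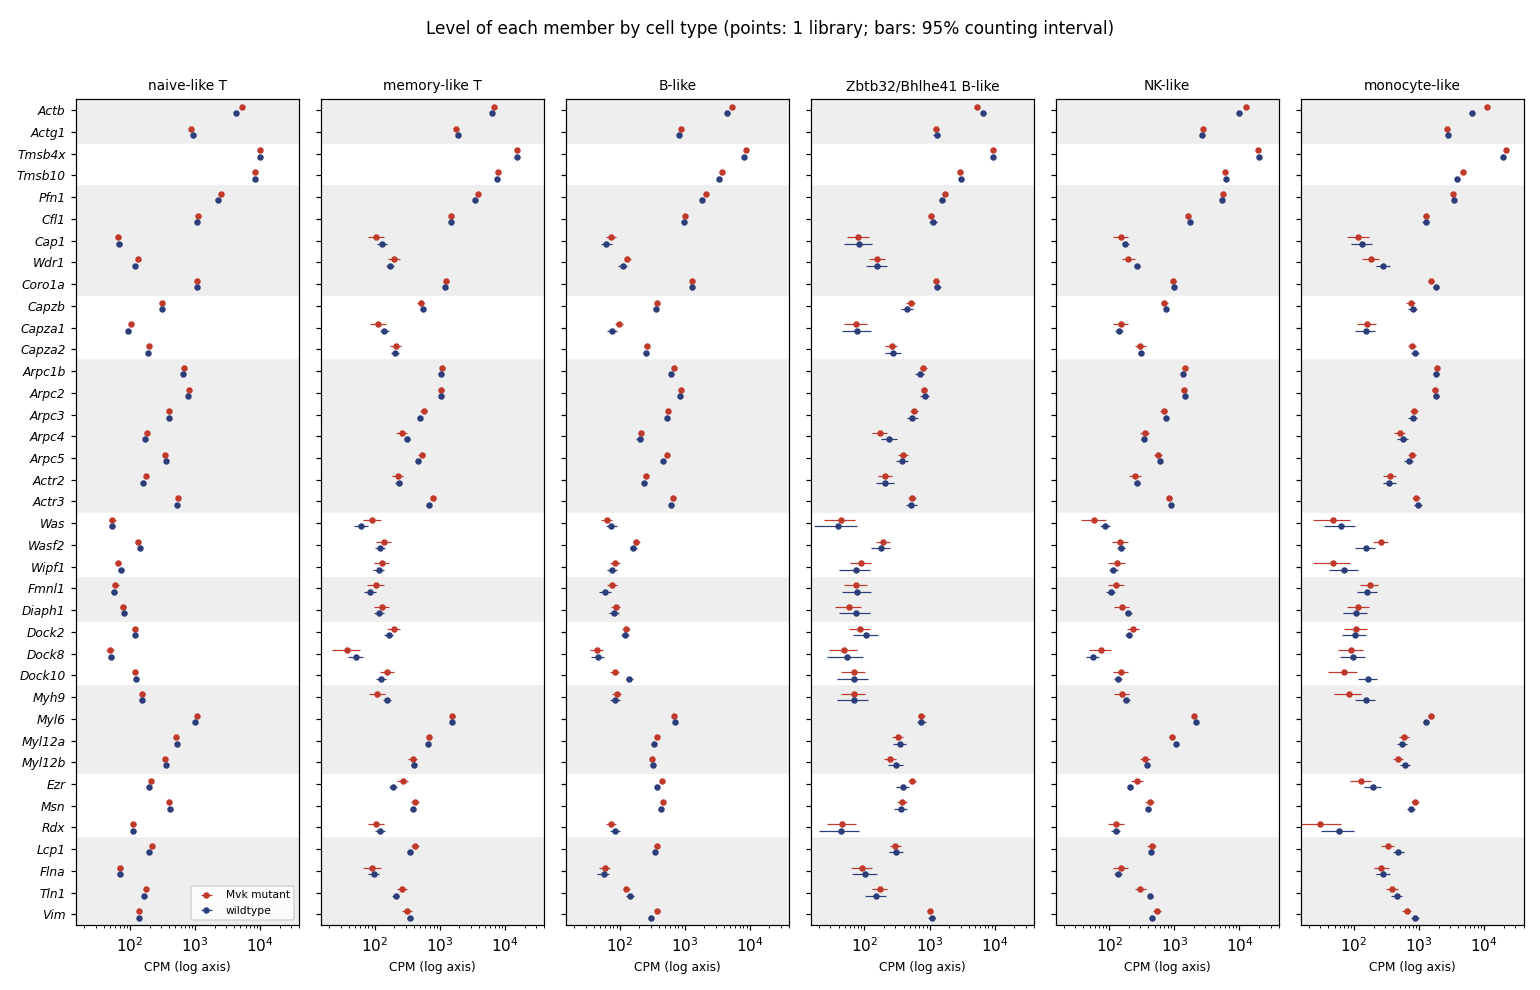
Level of the 38 members in each cell type. The horizontal axis is CPM on a log scale, each point is 1 library (red mutant, blue wildtype), bars are exact 95% counting intervals, and shaded bands separate the role groups. The 2 libraries lie close together for nearly all members, whereas levels differ by over 100-fold between members, with Tmsb4x highest (19107 to 21714 CPM in monocyte-like cells) and Dock8, Was and Rdx among the lowest.

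The thymosins, which sequester actin monomers, were the most abundant group and divided by cell type. Tmsb4x stood at 9888 CPM in mutant and 10056 CPM in wildtype naive-like T cells, and at 21714 and 19107 CPM in monocyte-like cells. In the wildtype library Tmsb4x was highest in NK-like cells. Tmsb10 ran the other way in monocyte-like cells, at 0.553-fold and 0.465-fold its naive-like T level. It fell from 8475 and 8212 CPM in naive-like T cells to 2888 and 3057 CPM in Zbtb32/Bhlhe41 B-like cells. Tmsb4x was also lower in B-like than in naive-like T cells, but less so (0.878-fold and 0.820-fold). Tmsb10 was the only member whose level was highest in naive-like T cells in both libraries. Tmsb4x therefore made up 53.8% (53.5 to 54.2) of mutant and 55.0% (54.7 to 55.3) of wildtype thymosin UMIs in naive-like T cells, and 82.3% (81.3 to 83.2) and 83.3% (82.3 to 84.3) in monocyte-like cells. Memory-like T cells (66.2% and 66.8%), B-like cells (69.8% and 71.4%) and NK-like cells (76.5% and 76.8%) lay between, in the same order in both libraries.

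The 2 actins differed between types, with Actb highest in NK-like cells in both libraries and Actg1 highest in NK-like (mutant) or monocyte-like (wildtype) cells. Actg1 (gamma-actin; chr11:120345690-120348542, minus strand, mm10) stood at 877 and 925 CPM in naive-like T cells and at 2731 and 2638 CPM in NK-like cells. NK-like cells thus held 3.11-fold (2.91 to 3.34) the naive-like T level among mutant and 2.85-fold (2.74 to 2.97) among wildtype cells. In memory-like T cells Actg1 reached 1800.3 and 1919 CPM, 2.05-fold (1.90 to 2.21) and 2.07-fold (1.97 to 2.18) the naive-like level. Actb (beta-actin; chr5:142903115-142906754, minus strand) was lowest in naive-like T cells and highest in NK-like cells in both libraries, a span of 2.42-fold and 2.30-fold. Reads shared by the 2 actins and by actin pseudogenes, and by Myl12a and Myl12b, may have been split between copies, and how they were counted is not given in the sources used here.

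Among the turnover genes, profilin Pfn1 followed the NK order most clearly. It stood at 5488 and 5326 CPM in NK-like cells, 3819.8 and 3455 CPM in memory-like T cells and 2511 and 2276 CPM in naive-like T cells, and the order of all 6 types was the same in both libraries. Cofilin Cfl1 was flatter, with 1108 and 1057 CPM in naive-like T cells against 1624 and 1765 CPM in NK-like cells. Coronin Coro1a was the only member lowest in NK-like cells in both libraries, at 939.5 and 985 CPM, with 1519 and 1809 CPM in monocyte-like cells. The cyclase-associated protein gene Cap1 stood at 66.2 and 68.7 CPM in naive-like T cells and 152 and 175 CPM in NK-like cells.

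Capping protein and Arp2/3 RNA was highest in monocyte-like cells. Summed over its 7 subunits, the Arp2/3 complex stood at 3148 and 3064 CPM in naive-like T cells and 5507 and 5701 CPM in NK-like cells. Monocyte-like cells held 6975 and 7000.3 CPM of it. The monocyte to naive-like T ratio was 2.22 (2.103 to 2.33) and 2.28 (2.17 to 2.41). All 7 subunits were highest in monocyte-like cells in both libraries, from 1.62-fold and 1.83-fold for Actr3 to 2.78-fold and 3.24-fold for Arpc4. The capping protein subunit Capza2 showed a larger span, with 194 and 187 CPM in naive-like T cells and 781 and 876 CPM in monocyte-like cells (4.03-fold, 3.42 to 4.74, and 4.69-fold, 4.01 to 5.46). Its paralog Capza1 differed less, at 1.53-fold (1.06 to 2.14) and 1.59-fold (1.09 to 2.25).

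Nucleation-promoting, formin and Dock genes were low in every type. Was, which encodes the WASP protein, ranged over the 6 types from 43.0 to 92.1 CPM (mutant) and from 39.0 to 85.6 CPM (wildtype), and Wasf2 (WAVE2) from 131 to 259 and 119 to 180.4 CPM. Wipf1, which binds WASP, was highest in NK-like cells and lowest in monocyte-like cells in both. The formin Fmnl1 was highest in monocyte-like cells (173 and 160.01 CPM against 59.9 and 57.7 CPM in naive-like T cells), whereas the formin Diaph1 was highest in NK-like cells (157 and 197 CPM). Dock2, a Rac exchange factor of leukocytes, was also highest in NK-like cells (232 and 197 CPM). Dock8, a Cdc42 exchange factor, ranged from 37.3 to 97.8 CPM over both libraries.

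The myosin II light chain Myl6 was the main myosin transcript and an NK-high gene. It stood at 1983 and 2159 CPM in NK-like cells, 1079 and 1010.3 CPM in naive-like T cells and 685 and 702 CPM in B-like cells, with the same order of all types in both libraries. Summed myosin II RNA was lower in B-like than in naive-like T cells, 0.702-fold (0.671 to 0.733) and 0.706-fold (0.675 to 0.738). The heavy chain Myh9 was lowest in Zbtb32/Bhlhe41 B-like cells (68.8 and 68.3 CPM).

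The ERM family changed its composition between types more than its total. Summed ERM RNA was highest in monocyte-like cells at 1036 and 1000.04 CPM, against 720 and 717 CPM in naive-like T and 794 and 703 CPM in memory-like T cells. Moesin (Msn) made up 84.6% and 74.7% of it in monocyte-like cells but 47.3% and 48.6% in B-like cells. Ezrin (Ezr; chr17:6738041-6782784, minus strand) made up 45.3% and 41.8% in B-like cells and 56.0% and 49.1% in Zbtb32/Bhlhe41 B-like cells, against 12.5% and 19.6% in monocyte-like cells. Radixin (Rdx) was the smallest part in every type, between 2.92% and 17.1%.

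Among the crosslinkers and filament genes, Vim had the widest span of all members. Vimentin RNA (chr2:13573927-13582826, plus strand) stood at 138 and 137 CPM in naive-like T cells and 1027 and 1073 CPM in Zbtb32/Bhlhe41 B-like cells, 7.45-fold and 7.85-fold apart. It was also above the other B-like cells by 2.70-fold (2.37 to 3.08) and 3.60-fold (3.05 to 4.22). Filamin A (Flna) stood at 69.9 and 71.1 CPM in naive-like T cells and 263 and 280.0 CPM in monocyte-like cells. Talin (Tln1), which links integrins to actin, was highest in monocyte-like and lowest in B-like cells, with the same order of all types in both libraries.

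**Figure D2:**
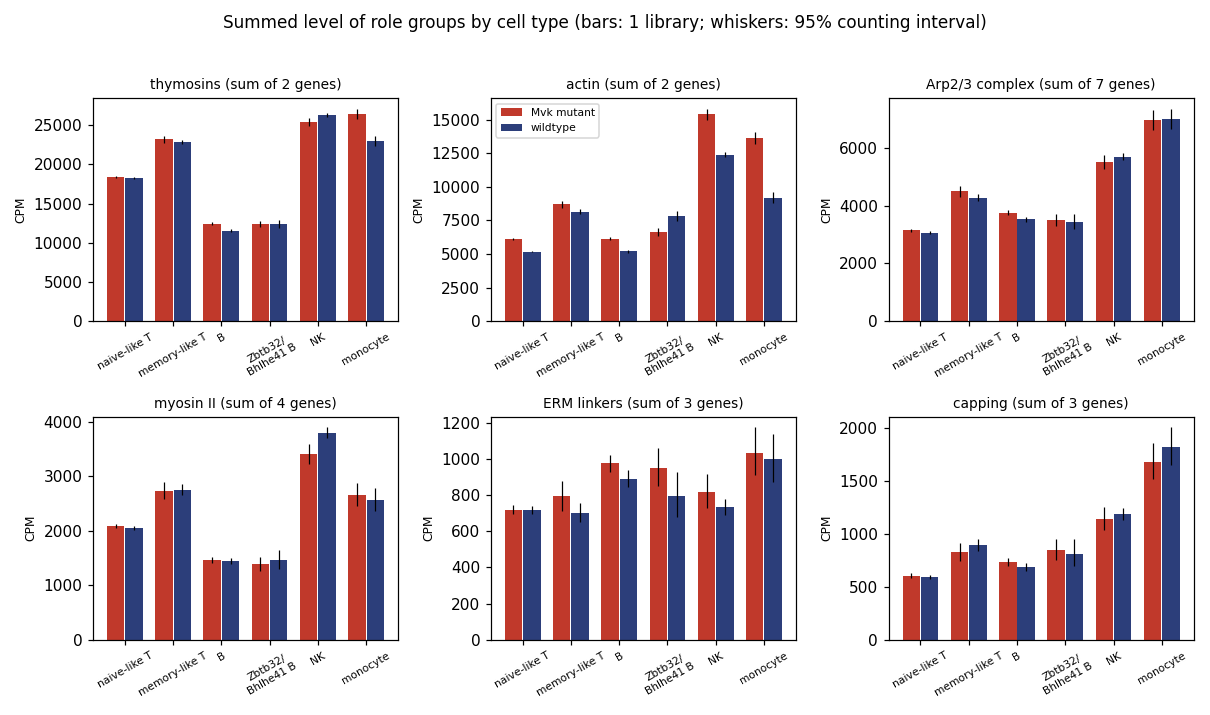
Summed level of 6 role groups in each cell type. The vertical axes are CPM from 0, bars are libraries (red mutant, blue wildtype) and whiskers are exact 95% counting intervals. Arp2/3 and capping RNA were highest in monocyte-like cells and myosin II RNA in NK-like cells in both libraries, and the actin sum shows the widest gap between libraries, in monocyte-like cells (13630 against 9183 CPM).

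Counted over members, a 2-fold difference in both libraries was asked for between types. Against naive-like T cells, 9 of 38 members were higher in NK-like cells (Actb, Actg1, Pfn1, Cap1, Capzb, Arpc1b, Diaph1, Lcp1, Vim) and 0 lower, where 8.07% and 5.99% of 6530 genes passed the same criterion. In monocyte-like cells 10 were higher (Actg1, Capzb, Capza2, Arpc1b, Arpc2, Arpc4, Fmnl1, Flna, Tln1, Vim) and 0 lower, where 11.8% and 14.1% of 6442 genes passed. Without the cells that carried a platelet marker UMI, 16 members were past 2-fold there, 14 higher and 2 lower, where 10.8% and 15% of 5995 genes passed. In memory-like T cells 2 were higher (Actg1, Vim) and 0 lower (background 3.15% and 1.04%), and in B-like cells Vim was higher and Tmsb10 lower (8.81% and 6.22%). NK-like and memory-like T cells were not apart by 2-fold in any of 37 measured members (3.64% and 2.57%), and Vim alone was higher in Zbtb32/Bhlhe41 B-like than in the other B-like cells (0.892% and 2.97%).

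Smaller differences ran the same way for most members. Above 1 in both libraries were 35 of 38 members in NK-like and 30 in monocyte-like against naive-like T cells, and 30 in memory-like T cells. The share of all genes above 1 was not counted. Above the median gene lay 30 (mutant) and 28 (wildtype) of 38 members in NK-like cells. These counts were 30 and 31 in monocyte-like and 29 and 27 in memory-like T cells. The median member ratio was 1.72 and 1.75 in NK-like cells, where the median log2 ratio was 0.78 and 0.81 for the members against 0.18 and 0.29 for all genes. In B-like cells the median member ratio was 1.07 and 1.02, and 19 members were above 1 in both libraries and 15 below. The median log2 ratio there was 0.099 and 0.035 for the members, below the 0.154 and 0.135 of all genes. Above the median gene lay 18 and 14 of 38 members.

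These ratios are relative to all RNA of a type, and ribosomal and mitochondrial RNA differed widely. Such genes held 41.7% and 43.3% of UMIs in naive-like T cells but 18.7% and 19.6% in monocyte-like cells and 21.6% and 19.01% in NK-like cells. Leaving them out of the totals multiplied every NK to naive-like T ratio by 0.743 (mutant) and 0.701 (wildtype), a shift of -0.43 and -0.51 in log2. Vim then was the 1 member past 2-fold (background 4.1% higher and 10.4% lower), and 28 of 38 members stayed above 1 in each library. The share of all genes above 1 was not counted on this scale either. The median log2 ratio was 0.36 and 0.30 for the members and -0.20 and -0.21 for all genes. For monocyte-like cells the factors were 0.717 and 0.706. On that scale Actg1, Capza2, Flna and Vim were past 2-fold higher, and Tmsb10 and Rdx past 2-fold lower, where 7.31% and 22.8% of genes passed. For memory-like T cells 0 members passed (2.24% and 1.81%). For B-like cells 0 were higher and 2 lower (Tmsb10, Myh9; 6.62% and 8.33%), and the median member log2 ratio was -0.16 and -0.23. The median of all genes moved by the same factor, to -0.10 and -0.12.

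A list of 75 other cytoskeleton genes (among them integrins, cofilin regulators, tropomyosins, tubulins) was read the same way. In NK-like against naive-like T cells 14 of 63 measured were higher and 4 lower (8.07% and 5.99% of all genes). In monocyte-like cells 24 of 64 were higher and 4 lower (11.8% and 14.1%). Actn1, an alpha-actinin gene picked out after its values were seen, was past 2-fold lower in all 4 types set against naive-like T cells. Memory-like T cells had 8 of 63 higher and 2 lower (3.15% and 1.04%), and B-like cells 5 of 66 higher and 2 lower (8.81% and 6.22%).

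The second comparison set the Mvk mutant against the wildtype library within each type, to see which members differ with the genotype of the pool. Most members were close to equal. A mutant level at least 25% above or 20% below the wildtype level, in genes with at least 50 UMIs in both libraries together, was counted as past the fold. In naive-like T cells, the most deeply counted type with 4591253 and 5894146 UMIs, 0 of 38 members were past it in either direction, where 9.87% of 8094 genes were higher and 8.57% lower. Their ratios ran from 0.895 (Wipf1) to 1.23 (Actb), with a median of 1.01.

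In each of the smaller types 2 to 9 members were past the fold. Memory-like T cells had 3 of 38 higher (Was, Ezr, Tln1) and 3 lower (Capza1, Dock8, Myh9), with backgrounds of 16.7% and 15.2%. B-like cells had 3 higher (Capza1, Fmnl1, Vim) and 1 lower (Dock10), with 15.1% and 9.55%, and Zbtb32/Bhlhe41 B-like cells 1 higher (Ezr) and 1 lower (Arpc4) of 28 measured, with 15.1% and 11.9%. NK-like cells had 3 higher (Actb, Dock8, Ezr) and 4 lower (Wdr1, Was, Diaph1, Tln1), with 13% and 21.8%. Monocyte-like cells had 2 higher (Actb, Wasf2) and 7 lower (Wdr1, Dock10, Myh9, Myl12b, Ezr, Lcp1, Vim) of 33 measured, with 17% and 17.6%. 

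Low counts widen ratios, so the count was repeated among genes with at least 500 UMIs. In naive-like T cells 0 of 38 members were then past the fold (background 2.67% higher and 0.992% lower), in memory-like T cells 0 of 19 (3.88% and 5.1%) and in Zbtb32/Bhlhe41 B-like cells 0 of 8 (1.89% and 1.26%). Of 24 members in B-like cells Vim was higher (4.25% and 1.95%). Of 22 in NK-like cells Actb was higher and Tln1 lower (5.24% and 7.49%), and of 10 in monocyte-like cells Actb was higher (6.9% and 2.76%).

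**Figure D3:**
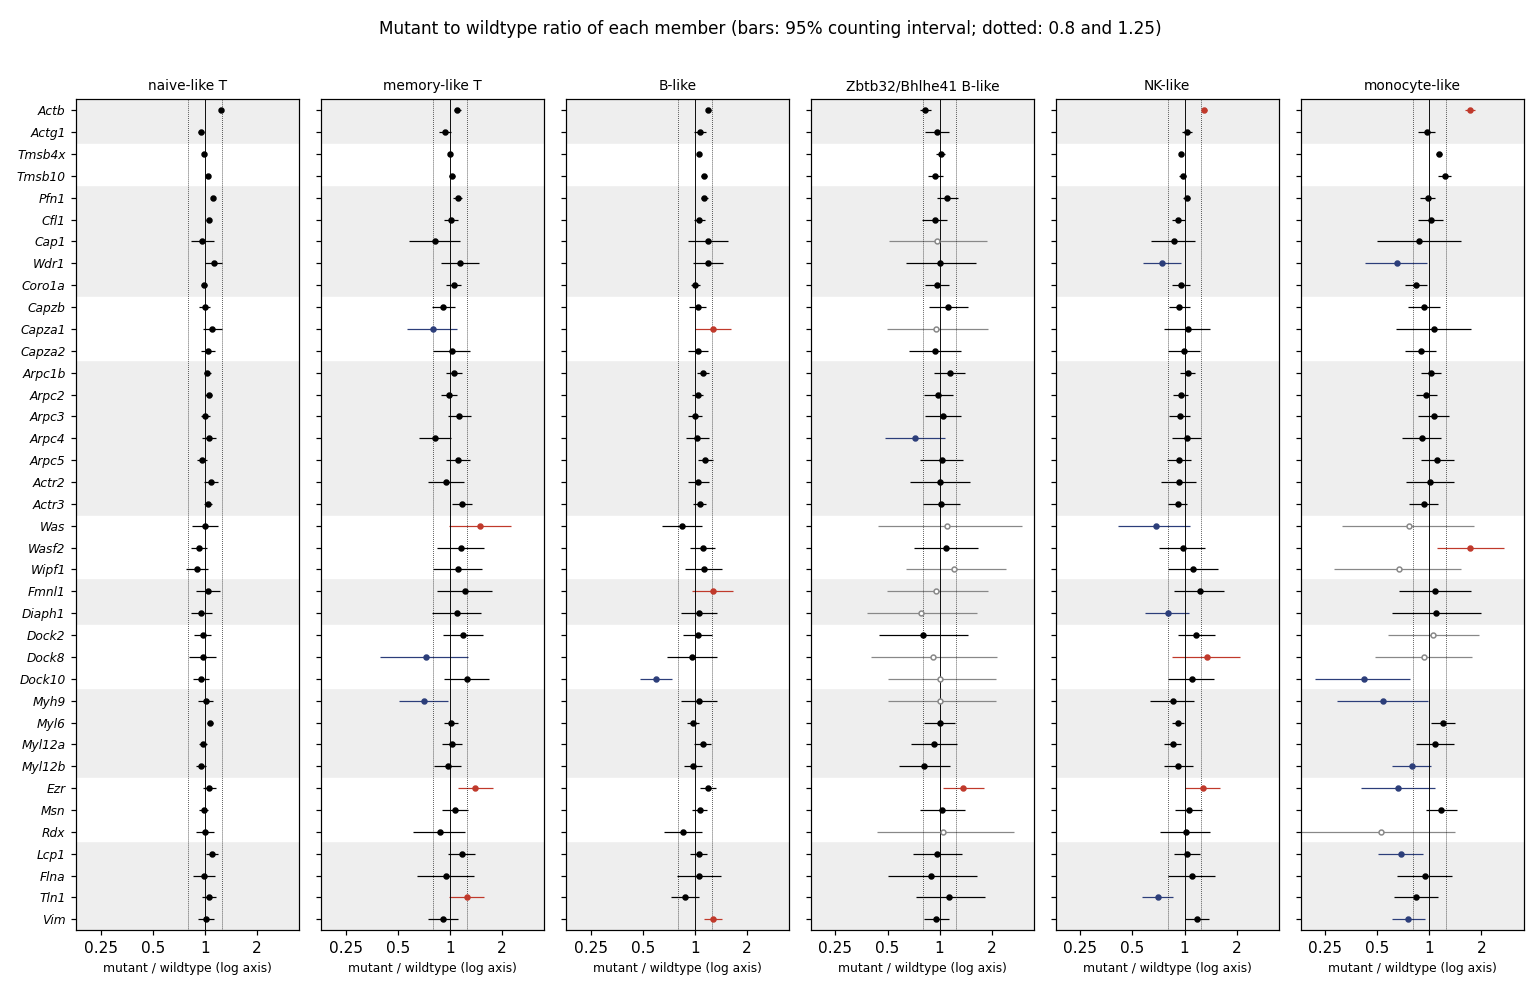
Mutant to wildtype ratio of the 38 members in each cell type. The horizontal axis is the ratio on a log scale, bars are exact 95% counting intervals, dotted lines mark 20% below and 25% above, red and blue points lie past them, and open grey points have under 50 UMIs. Naive-like T cells hold no point past a dotted line, and the points farthest from 1 are Dock10 (0.420), Actb (1.71) and Wasf2 (1.71) in monocyte-like cells.

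The complexes as sums differed little. The Arp2/3 complex gave mutant to wildtype ratios of 1.03 (1.01 to 1.05) in naive-like T, 1.05 (0.997 to 1.11) in memory-like T and 1.07 (1.03 to 1.11) in B-like cells. In NK-like cells it was 0.966 (0.920 to 1.01), and in monocyte-like cells 0.996 (0.929 to 1.07). Both the thymosin and the myosin II sum were lowest in NK-like cells, at 0.963 (0.942 to 0.985) and 0.898 (0.844 to 0.954). They were highest in monocyte-like cells, at 1.15 (1.11 to 1.19) and 1.04 (0.922 to 1.16). The ERM sum lay between 1.003 (0.959 to 1.05) in naive-like T and 1.20 (0.990 to 1.45) in Zbtb32/Bhlhe41 B-like cells. No sum of these 4 groups was past the fold in any type. Of the other groups the actin sum (1.48, 1.40 to 1.57), the crosslinker and vimentin sum (0.781, 0.680 to 0.897) and the Dock sum (0.734, 0.519 to 1.03) were past it in monocyte-like cells.

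Actb was the member with the most regular difference between the libraries. It stood at 5237 CPM in mutant and 4248 CPM in wildtype naive-like T cells, a ratio of 1.23 (1.21 to 1.255). In B-like cells it stood at 5273 and 4403 CPM (1.20, 1.16 to 1.24), and in memory-like T cells at 6898 and 6244 CPM (1.10, 1.06 to 1.15). These 3 types were higher in the mutant library without reaching the fold. Among memory-like T cells the direction was not uniform, with 1.20 (1.03 to 1.39) in 15 and 38 Cd4 cells and 0.981 (0.914 to 1.05) in 67 and 166 Cd8 cells, and the median cell gave 0.916. That class also held 814 and 1506 CPM of NK markers, whose part in its ratios here and below was not tested. In monocyte-like cells Actb stood at 10933 and 6391 CPM (1.71, 1.60 to 1.83), and in NK-like cells at 12674 and 9752 CPM (1.30, 1.26 to 1.34). With a stricter gate, which asks for 1 more marker UMI and allows none of another type, these ratios were 1.01 (35 and 40 cells) and 0.990 (83 and 441 cells). The exception was the Zbtb32/Bhlhe41 B-like cells, with 5387 and 6525 CPM (0.826, 0.769 to 0.886). Thinned to 800 UMIs per cell, that ratio was 1.14. Among 961 genes measured in all 6 types, 11 (1.14%) were above 1 with an interval off 1 in at least 5 types, and Actb was the 1 member among them.

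Actg1 did not share this difference. Its ratio lay between 0.938 and 1.07 over the 6 types, with an interval that left out 1 in naive-like T cells alone (0.948, 0.910 to 0.987). Actb therefore made up a larger part of the 2 actins in mutant than in wildtype naive-like T cells (85.7%, 85.2 to 86.1, against 82.1%, 81.7 to 82.5) and monocyte-like cells (80.2%, 78.8 to 81.6, against 69.6%, 67.6 to 71.6). Free RNA of the mutant library also held more Actb, 20750.3 against 17882 CPM (1.16, 1.13 to 1.20), and its part in the cells' ratios was not tested beyond subtraction, after which the naive-like T ratio was 1.35. Without cells that carried a platelet marker UMI the monocyte ratio was 2.01.

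**Figure D4:**
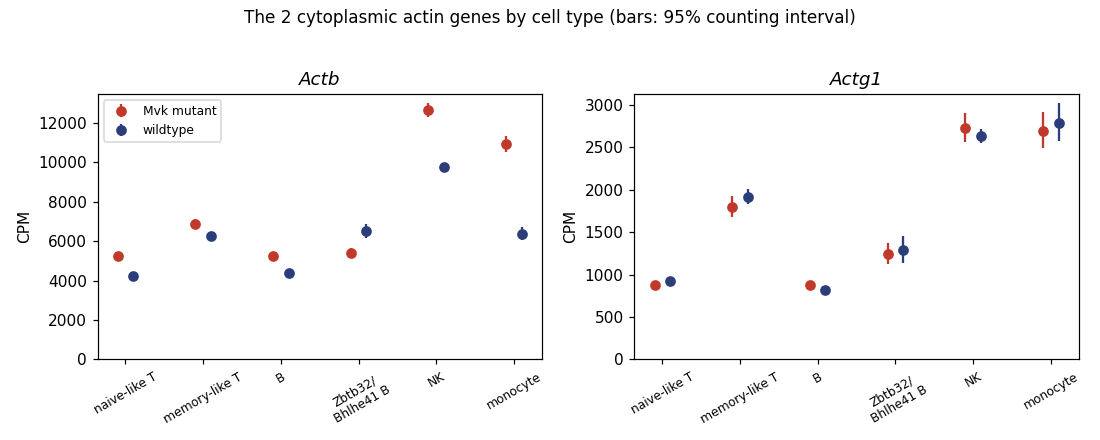
Levels of Actb and Actg1 in each cell type. The vertical axes are CPM from 0, points are libraries (red mutant, blue wildtype) and bars are exact 95% counting intervals. For Actb the mutant point lies above the wildtype point in 5 of 6 types, most in monocyte-like cells (10933 against 6391 CPM), and for Actg1 the 2 libraries lie close together.

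The spread of Actb over single cells showed where its UMIs lay. Most cells of a type were close together, and a minority carried several times more Actb. With a line at 100 Actb UMIs per 10000 UMIs of a cell, chosen after the spread was seen, 273 of 2091 mutant (13.1%, 11.6 to 14.6) and 246 of 2474 wildtype naive-like T cells (9.94%, 8.79 to 11.2) lay at or above it. These cells held 51.0% and 42.2% of the Actb UMIs of their type. Their median levels were 190 and 168 UMIs per 10000, against 24.96 and 22.9 in the cells below. In depth these naive-like T cells were close to the others, with medians of 2129 and 2281 UMIs against 2090.5 and 2285 in the cells below.

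The share of such cells is drawn from the same Actb values as the level and is not a separate result. This share was higher in the mutant library in the same 5 types as the Actb level. It was 13.8% (11.8 to 16.1) against 10.97% (9.05 to 13.1) in B-like and 16.9% (11.7 to 23.3) against 14.47% (11.1 to 18.4) in memory-like T cells. NK-like cells had 25% (18.8 to 32.1) against 22.9% (20.05 to 25.9). In monocyte-like cells it was 23.8% (14.9 to 34.6; 19 cells) against 12.8% (6.56 to 21.7; 11 cells), and in Zbtb32/Bhlhe41 B-like cells 15.2% (8.97 to 23.6; 16 cells) against 18.2% (9.08 to 30.9; 10 cells). Naive-like T cells were the 1 type in which the ratio of shares had an interval off 1 (1.31, 1.10 to 1.57). That interval treats the cells of 1 pool as independent and holds no error between animals. Below the line the Actb level ratio of the libraries was 1.09 in naive-like T, 1.06 in B-like, 0.992 in monocyte-like and 0.993 in NK-like cells, and 0.937 and 0.903 in memory-like T and Zbtb32/Bhlhe41 B-like cells. The Actb intervals above treat UMIs as independent, whereas 71.2% of the mutant NK-like Actb UMIs came from 44 of 176 cells.

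**Figure D5:**
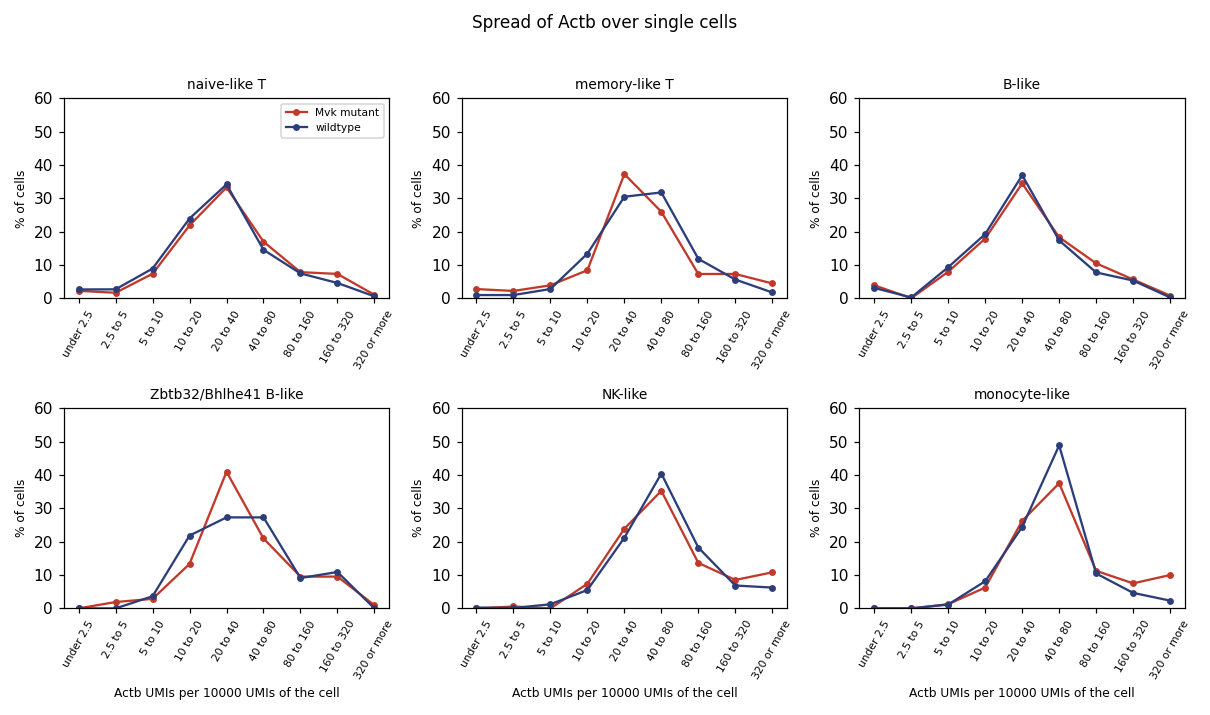
Spread of Actb over single cells of each type. The horizontal axis gives classes of Actb UMIs per 10000 UMIs of the cell, each mostly 2 times as wide as the one before, the vertical axis is the share of cells in percent from 0, and lines are libraries (red mutant, blue wildtype). Most cells lie between 10 and 80, and in monocyte-like cells the class of 320 or more holds 8 of 80 mutant and 2 of 86 wildtype cells.

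In naive-like T cells the other 37 members ran from 0.743 to 1.31 (mutant) and from 0.648 to 1.57 (wildtype) of their level below the Actb line. At least 25% higher were 1 and 3 of them, where 14.6% and 17.5% of all genes were, and at least 20% lower were 2 and 2 (19.5% and 20.3%). Actg1 above the line stood at 0.967 (0.879 to 1.06) of its level below it among mutant and 1.10 (1.01 to 1.20) among wildtype cells, and the median over the 37 other members was 1.06 and 1.04. In memory-like T cells Actg1 stood at 1.56 (1.32 to 1.83) and 1.32 (1.18 to 1.48), and 18 of 31 measured members (mutant, 30 cells above the line) and 8 of 37 (wildtype, 56 cells) were at least 25% higher, against 23.8% and 22.7% of all genes. At least 20% lower were 4 and 1, against 22% and 20.8%. In naive-like T cells, 1270 genes had at least 50 UMIs in the cells above the line in both libraries. Of these, 21 were at least 2-fold higher above the line in both libraries. That filter favours genes that are high above the line, so this count is not a share of all genes. The 6 with the largest ratios, named after their values were seen, were Kdm6b and Kmt2d, which encode histone-modifying enzymes, and Marf1, Ppp1r16b, Rpgrip1 and Acot2. Kdm6b stood 4.85-fold (3.66 to 6.41) and 4.39-fold (3.39 to 5.66) higher. Read in B-like cells, which had no part in their choice, Kdm6b was 3.47-fold (2.36 to 5.04) and 3.34-fold (2.15 to 5.08) higher and Marf1 5.87-fold (3.63 to 9.48) and 5.45-fold (3.24 to 9.02). Kmt2d, Ppp1r16b, Rpgrip1 and Acot2 were also higher there in both libraries. The smaller types held few UMIs of these genes, and several intervals included 1. Marf1 stood at 0.924 and 0.878 in Zbtb32/Bhlhe41 B-like cells, and Kmt2d and Acot2 had 0 UMIs above the line in wildtype monocyte-like cells. Cells of 1 pool are not replicates, and the intervals hold counting error alone.

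Ezr was the member past the fold in the higher direction in the most types. It stood at 268 and 191 CPM in memory-like T cells (1.40, 1.11 to 1.76), 534 and 390.1 CPM in Zbtb32/Bhlhe41 B-like cells (1.37, 1.05 to 1.80). For NK-like cells the values were 269 and 210.3 CPM (1.28, 1.01 to 1.60). In B-like cells it stood at 442 and 373 CPM (1.19, 1.06 to 1.32), and in naive-like T cells at 208 and 197 CPM (1.05, 0.966 to 1.15). The mutant library was thus the higher one in all 5 lymphocyte types. Monocyte-like cells had 129 and 196 CPM from 30 and 44 UMIs (0.662, 0.402 to 1.08). Thinned to 800 UMIs per cell, the memory-like T ratio was 1.01. Msn lay between 0.980 and 1.17, and Rdx, counted in 5 of the 6 types by under 200 UMIs in the mutant library, had no interval off 1.

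Dock10, a Rac and Cdc42 exchange factor, was lower in the mutant library in B-like cells. It stood at 83.9 CPM (145 UMIs) in mutant and 141 CPM (229 UMIs) in wildtype B-like cells (0.596, 0.480 to 0.737). The ratio was 0.420 (0.218 to 0.774) in monocyte-like cells, from 16 and 37 UMIs, and 0.947 (0.847 to 1.06) in naive-like T cells. In B-like cells without a UMI of Vpreb3, a gene of immature B cells, it was 0.649. Dock2 and Dock8 had no interval off 1 in any type.

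Vim differed in 3 types. It stood at 380.3 and 298 CPM in B-like cells (1.27, 1.13 to 1.44) and 647 and 858 CPM in monocyte-like cells (0.755, 0.606 to 0.939). In NK-like cells it stood at 538 and 454 CPM (1.19, 1.01 to 1.39), and with the stricter gate its ratio was 0.901. In naive-like T cells its ratio was 1.01 (0.908 to 1.12).

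The remaining differences with an interval off 1 and past the fold lay in NK-like, monocyte-like, memory-like T and B-like cells. In NK-like cells Tln1 stood at 301 and 429 CPM (0.702, 0.569 to 0.858) and Wdr1 at 197 and 265 CPM (0.744, 0.572 to 0.955). In monocyte-like cells Wasf2 stood at 259 and 151 CPM (1.71, 1.11 to 2.69), and Wdr1 (0.647), Lcp1, which encodes the actin bundler L-plastin (0.683), and Myh9 (0.543) were lower in the mutant library. In memory-like T cells Myh9 stood at 109.6 and 155 CPM (0.709, 0.506 to 0.978), and in B-like cells Capza1 at 97.8 and 76.9 CPM (1.27, 1.003 to 1.62). The best counted of these, Tln1 in NK-like cells, rests on 113 and 636 UMIs, and intervals were not adjusted for the 228 member-by-type values.

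Among the 75 other cytoskeleton genes, 5 of 67 measured were past the fold higher and 3 lower in naive-like T cells (background 9.87% and 8.57%). The counts were 11 and 3 of 64 in B-like (15.1% and 9.55%) and 14 and 3 of 54 in NK-like cells (13% and 21.8%). They were 9 and 7 of 51 in memory-like T (16.7% and 15.2%) and 6 and 6 of 30 in Zbtb32/Bhlhe41 B-like cells (15.1% and 11.9%). Monocyte-like cells had 3 and 5 of 37 (17% and 17.6%). The tubulin genes Tubb5 and Tuba1b and the tubulin-binding Stmn1 were higher in mutant NK-like cells, at 615 and 365 CPM for Tubb5 (1.68, 1.44 to 1.97). In memory-like T cells the direction was the opposite for Tubb5, at 447 and 618 CPM (0.724, 0.616 to 0.848), and Tuba1b (0.691, 0.569 to 0.836). The integrin gene Itgb2 was lower in mutant NK-like cells (0.795, 0.695 to 0.906). Tagln2, an actin-binding gene, was higher in mutant B-like cells, at 350.2 and 241 CPM (1.45, 1.28 to 1.65).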

How the data were processed

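The deposited files held raw UMI counts for 27998 genes and 737280 barcodes per library, as whole numbers; the authors counted them with Cell Ranger 2.1.1 on mm10 per the submitters' processing notes, from 10x 3′ v2 libraries per the labels. Near-identical genes may share reads. From these counts, cells with at least 800 UMIs, 200 genes and at most 10% mitochondrial UMIs were kept. A cell entered a type with at least 2 UMIs of T or 3 of B, NK or monocyte markers, and at most 1 T or 2 other UMIs of another type, except that T cells could carry NK markers. Cells past limits of red cell, neutrophil, basophil, dendritic or plasma cell UMIs were left out, and possible doublets (Scrublet in scanpy 1.11.5) were removed only in an alternative. UMIs were summed per type and library and given as CPM of that sum, with exact Poisson 95% intervals. Ratios carry exact conditional (Clopper-Pearson) intervals, computed with scipy 1.17.1. The method was tested on simulated counts with Poisson error alone, so that test cannot cover spread between cells or animals. With 1 library per genotype no test was run. Genes with 50 UMIs over both libraries counted as measured, and the fold was 25% above or 20% below between libraries and 2 in both libraries between types. The thymosin, Arp2/3, ERM and myosin groups were given as sums, with values for some of their members. Members past a fold (between libraries with an interval off 1) were named, most of them with values. The others were given by ranges or within group sums. Other pathway genes were named only as the 3 highest or lowest ratios of a type with at least 200 UMIs, with exceptions marked. The members, gene lists and type markers were chosen with earlier results of these data known. Alternatives covered cell filters, gates, scaling, free RNA, platelet UMIs and subsets of types. Positions are from GENCODE vM21 (GRCm38, the build mm10) and promoter sequences from RefSeq.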

Additional observations from a re-analysis of the deposited data

Results flagged for a closer look

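In 4 members the mutant to wildtype ratio lay on opposite sides of 1 in different cell types, each with a counting interval that left out 1. The share of all genes with such a pattern was not counted. The difference between the types was not tested, since each type has 1 library per genotype. Actb had ratios of 1.23 in naive-like T, 1.10 in memory-like T, 1.20 in B-like, 1.71 in monocyte-like and 1.30 in NK-like cells, against 0.826 in Zbtb32/Bhlhe41 B-like cells. Wdr1, a cofactor of cofilin, had 1.12 in naive-like T cells against 0.647 in monocyte-like and 0.744 in NK-like cells. Lcp1 had 1.10 in naive-like T cells against 0.683 in monocyte-like cells. Vim had 1.27 in B-like and 1.19 in NK-like cells against 0.755 in monocyte-like cells. Several of these values depended on the gate or on depth. With a stricter gate the Actb ratio was close to 1 in NK-like and monocyte-like cells. The NK-like Vim ratio then fell below 1. With cells thinned to equal UMIs, the Zbtb32/Bhlhe41 B-like Actb ratio rose above 1.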

How the results depend on the processing

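No paired analysis was possible because each genotype has 1 library. No library scaling moved the median of all genes by 0.1 in log2. The share of all genes past the fold was not counted under the alternatives below, except where a background is given above. Counts of members under them are therefore given without a comparison. Members past the fold between libraries (0 in naive-like T cells) were 3 when thinned to 800 UMIs or in Cd4 T cells and 1 with free RNA subtracted or a stricter gate. Memory-like T cells (6) gave 0 at a minimum of 500 UMIs and at a fold of 1.5. B-like cells (4) gave 1 without ribosomal and mitochondrial genes, with the median ratio set to 1, without Vpreb3 cells, at 500 UMIs and at 1.5-fold, and 2 from the mean of per-cell CPM. Zbtb32/Bhlhe41 B-like cells (2) gave 4 when thinned, with a stricter gate (33 and 18 cells) and without mixed-cell limits. They gave 8 with 2 UMIs of Zbtb32 or Bhlhe41 (39 and 23 cells), and 0 at 500 UMIs and at 1.5-fold. NK-like cells (7) gave 2 at 500 UMIs and 0 at 1.5-fold, and monocyte-like cells (9) gave 1 at 500 UMIs and 4 in cells under 100 Actb UMIs per 10000. Between types, memory-like against naive-like T cells (2) gave 0 without ribosomal and mitochondrial genes, and 1 when thinned, with a stricter gate, without platelet UMIs, per cell, in Cd4 T, in Cd8 T and in cells under the Actb line. B-like against naive-like T cells (2) gave 1 when thinned, NK-like (9) gave 1 without ribosomal and mitochondrial genes, and monocyte-like (10) gave 6 without these and 16 without platelet UMIs. Zbtb32/Bhlhe41 B-like against other B-like cells (1) gave 2 when thinned and with a stricter gate. A stricter gate, with 83 and 441 NK-like and 35 and 40 monocyte-like cells, turned the NK-like Actb ratio of 1.30 to 0.990 and the monocyte-like actin sum of 1.48 to 0.994. In cells under the Actb line, which is set on the outcome itself, the Actb ratio was 0.992 in monocyte-like and 0.993 in NK-like cells and the monocyte-like actin sum 0.998. A stricter gate also took Vim in NK-like cells from 1.19 to 0.901, and thinning took Actb in Zbtb32/Bhlhe41 B-like cells from 0.826 to 1.14. The Actb ratio in naive-like T cells stayed above 1 in all 14 alternatives (1.09 to 1.35) and that of Dock10 in B-like cells below 0.8 in all 13 (0.580 to 0.649). Fewer cells and fewer UMIs widen every value under the gates, and the other causes were not tested. The alternatives without Vpreb3, without mixed-cell limits, by monocyte kind and under the Actb line were chosen after seeing the data.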
